A study of Mus musculus with 36 samples.

Results

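The mitochondrial ribosomal proteins are the proteins of the ribosome inside mitochondria. They are encoded in the nucleus, made in the cytosol and imported, and together with 2 ribosomal RNAs encoded by mitochondrial DNA they form a large and a small subunit that translate the few respiratory chain proteins encoded in that DNA. Some have counterparts in bacterial ribosomes and others were added in mitochondria. In pancreatic beta cells, mitochondrial ATP production couples glucose metabolism to insulin secretion. The members were every gene with a symbol of Mrpl (large subunit) or Mrps (small subunit) and a digit that was named alone on a transcript cluster, the array's unit for a gene. This gave 68 members among 14860 genes, of which 43 were Mrpl and 25 Mrps. RefSeq lists 78 genes of these names, so 10 were not analysed here: Mrpl53, Mrps22 and Mrps6 lay on clusters with several symbols, and the other 7 had no named cluster. Mrpl48 had more than 1 cluster and the brightest was used. By current nomenclature 45 members belong to the large subunit and 22 to the small subunit, 41 have bacterial counterparts and 26 are mitochondria-specific. Mrps36 was left out of these classes, since it was later assigned to the 2-oxoglutarate dehydrogenase complex.

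RNA was measured on exon arrays in islets of male C57BL/6N mice, either wild type (WT) or lacking a protein-coding exon of Gnaz in the whole body (KO). Gnaz encodes Gαz, an inhibitory G protein alpha-subunit. The mice were fed a control diet with 10 kcal% fat (CD) or a high-fat diet with 45 kcal% fat (HFD) for 16 weeks from 11 weeks of age. The labels give an age of 6 months and the deposited protocol 37 to 40 weeks. The protocol's age is above the one that 16 weeks of diet from 11 weeks of age gives. Each array held the islets of 1 mouse, hand-picked after digestion of the pancreas, and arrays are named by their islet number. There were 5 WT CD, 5 KO CD, 4 WT HFD and 4 KO HFD arrays. The study's methods left 1 KO HFD array out of the analysis without naming it, and it was taken to be KO HFD 11 from an earlier match to the study's printed fold changes, which was not repeated here. The fit therefore used 17 arrays with 3 KO HFD arrays, and the values of KO HFD 11 and of all 18 arrays are given beside it. The whole body lacked Gαz, so an effect within the islet cannot be told apart from one that reached it from other tissues. In islet RNA, fewer cells of a type and less RNA per cell cannot be told apart either.

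The targeted gene matched the labels: Gnaz lay between 11.02 and 11.26 on the log2 scale in every WT array and between 10.03 and 10.56 in every KO array. The deleted exon is part of a gene whose other exons are also on the array, so some signal in KO arrays says nothing of the protein. Ins2, Gcg, Sst, Ppy and Iapp, the hormones that define islets, were above 13 on every array. The distribution of all genes was lower in the KO HFD arrays. The median of the genes tested was 8.34 to 8.40 in KO HFD 10, 17 and 18, 8.52 in KO HFD 11, and 8.48 to 8.71 in the 14 arrays of the other groups. All members are therefore described as deposited and after rescaling. Acinar RNA also moved with the groups: the mean of 13 digestive enzymes was 13.74 to 14.05 in WT CD, 13.47 to 13.89 in KO CD, 13.11 to 13.56 in WT HFD and 13.82 to 14.09 in the 3 KO HFD arrays. Leukocyte markers stood highest in WT CD 14 and KO CD 13, with means of 9.56 and 9.38, while those of all other arrays lay between 7.94 and 8.97.

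The mean of the 68 members, on the deposited log2 scale, was 9.15 to 9.29 in WT CD, 9.18 to 9.45 in KO CD and 9.14 to 9.37 in WT HFD. In KO HFD it was 9.04, 8.93 and 8.93 for islets 10, 17 and 18, and 9.10 for islet 11. All 4 KO HFD arrays were thus below every other array, with KO HFD 11 the closest to the rest. The group means were 9.21 ± 0.06 in WT CD (SD, n = 5), 9.32 ± 0.10 in KO CD (n = 5), 9.22 ± 0.11 in WT HFD (n = 4) and 8.97 ± 0.06 in KO HFD (n = 3). Relative to the median of all genes on the same array, the member mean stood 0.64, 0.59 and 0.59 higher in the 3 KO HFD arrays and 0.58 higher in KO HFD 11, against 0.66 to 0.72 in WT HFD and 0.67 to 0.74 in KO CD. In WT CD it stood 0.59 to 0.73 higher, and WT CD 14 with 0.59 overlapped the KO HFD arrays. The median over all clusters differed less between the groups, with 8.04 ± 0.02 in WT HFD and 7.96 ± 0.02 in KO HFD, and after centring on it the member means were 9.22 in WT HFD and 9.05 in KO HFD. How much of the difference between KO HFD and WT HFD went with the level of the whole array thus depended on which median stood for that level.

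**Figure D1:**
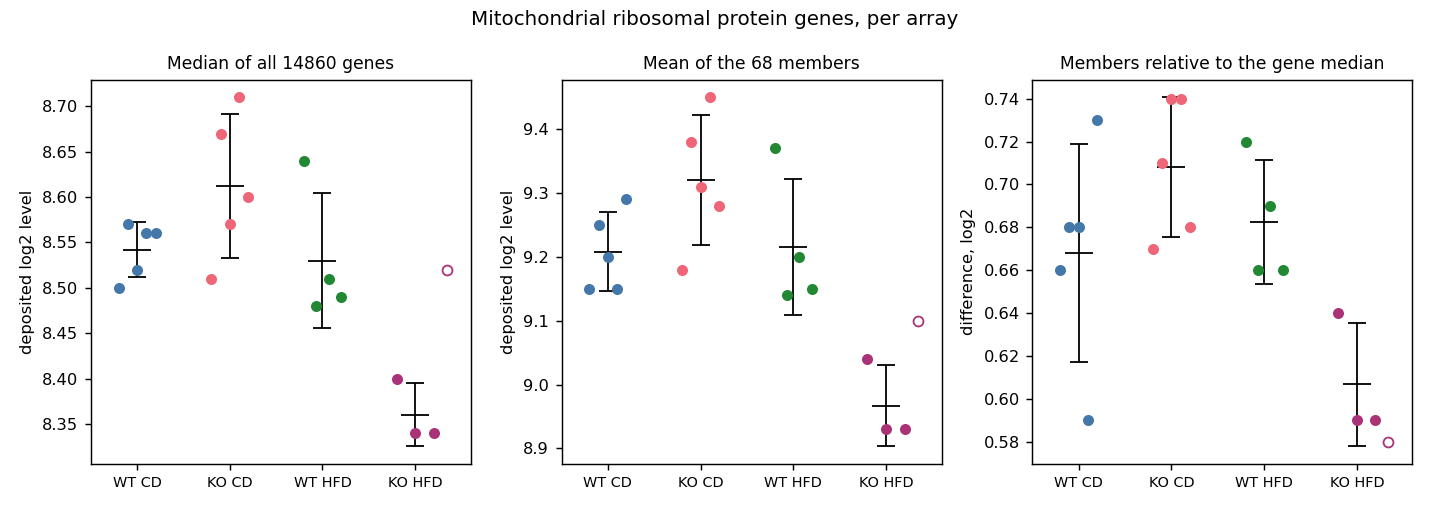
Each point is 1 array in WT CD, KO CD, WT HFD or KO HFD. The y axes show the median of 14860 genes on the deposited log2 scale, the mean of the 68 members on the same scale, and the difference between these; bars are mean ± SD of the filled points, and the open circle is KO HFD 11, left out of the fit. The 3 filled KO HFD points are lowest in the first 2 panels, and in the third WT CD 14 reaches down to 0.59 among them.

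Loss of Gαz under HFD was compared in KO HFD and WT HFD. As deposited, 35 of the 68 members (51.5%) fell and none rose, with a median log2 difference of -0.24 and a range of -0.54 to 0.13. Over all genes tested 28.1% were called lower and 1.32% higher, with a median of -0.13. Each array was then centred on its median over all clusters, after which 14 members (20.6%) fell, against 13.0% of all genes, and their median was -0.17 against -0.05. Centring on the median of the genes tested left 7 members lower and 1 higher, against 5.35% and 4.92% of all genes. Quantile normalization left 6 lower and 1 higher, against 6.22% and 4.82%, and cyclic loess 5 lower and 1 higher, against 5.29% of all genes called higher and 5.17% called lower. Under the last 3 scalings the member medians were -0.07, -0.07 and -0.06, and the medians of all genes 0.04, -0.00 and 0.00. The number of members called thus depended on the scaling, while the member median stood below that of all genes under each of the 5.

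Single arrays moved these counts. With all 18 arrays 25 members fell as deposited, against 20.3% of all genes. Without KO HFD 17, KO HFD 18 or WT HFD 7 the count went from 35 to 18, 17 and 18, while the share of all genes called lower went from 28.1% to 18.5%, 18.0% and 16.7%. After centring on the cluster median the count of 14 went to 7, 9 and 7 and the share of all genes from 13.0% to 6.9%, 9.56% and 6.61%. With the mean of digestive enzymes as a covariate no member was called, and 0.0606% of all genes were called lower. WT HFD 7 had the highest member mean of its group.

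**Figure D2:**
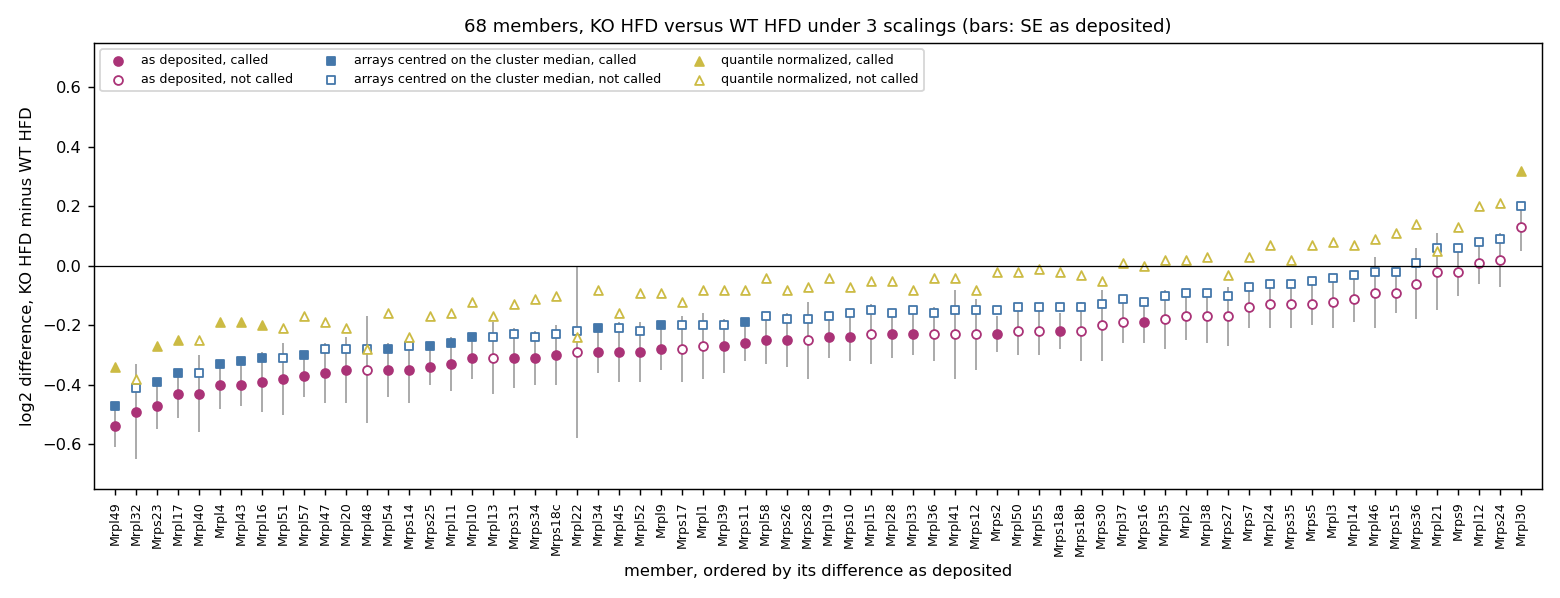
The y axis is the log2 difference of each of the 68 members between KO HFD and WT HFD; members are ordered by the difference as deposited. Filled symbols passed an adjusted p of 0.05 and bars are the SE as deposited; all symbols shift up from the deposited to the quantile normalized values, Mrpl49 has the lowest deposited value, -0.54, and Mrpl30 the highest.

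Of the 68 members, 5 (7.35%) fell in KO HFD against WT HFD under all 5 scalings and also with all 18 arrays: Mrpl49, Mrps23, Mrpl17, Mrpl4 and Mrpl43. The share of all genes that did so was not counted. It cannot exceed the 5.17% called lower after cyclic loess, where the same number of members was called. Mrpl49, a mitochondria-specific protein of the large subunit, led the 5. Its deposited log2 levels were 9.39, 9.64 and 9.56 in KO HFD 10, 17 and 18, and 9.98, 10.14, 10.04 and 10.13 in WT HFD. In CD they were 10.00 to 10.12 in WT and 10.05 to 10.23 in KO. The 3 KO HFD arrays lay below every other array, but KO HFD 11, at 10.11, lay among the WT HFD arrays. Mrpl49 fell to 0.69-fold in KO HFD, a log2 difference of -0.54 ± 0.07 (SE, adjusted p = 0.00032), which placed it at rank 19 by p among all genes. After centring on the cluster median the difference was -0.47 (adjusted p = 0.00089), and after quantile normalization -0.34 (adjusted p = 0.0026). With all 18 arrays it was -0.40 ± 0.11 (adjusted p = 0.018), at rank 1286.

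Mrps23, a mitochondria-specific protein of the small subunit, had the deposited log2 levels 9.89, 9.93 and 9.93 in KO HFD and 10.16 in KO HFD 11, and 10.27 to 10.56 in WT HFD. The groups did not overlap even with KO HFD 11. It fell by 0.47 on the log2 scale (SE 0.08, adjusted p = 0.0013), by 0.27 after quantile normalization (adjusted p = 0.0053) and by 0.41 with all 18 arrays (adjusted p = 0.0071). Mrpl17, a large-subunit protein with a bacterial counterpart, had 8.67, 8.76 and 8.59 in KO HFD, 8.87 in KO HFD 11 and 8.99 to 9.18 in WT HFD. It fell by 0.43 (SE 0.08, adjusted p = 0.0021), again with no overlap. Mrpl4, the counterpart of a bacterial protein that lines the peptide exit tunnel, had 10.24, 10.11 and 10.20 in KO HFD, 10.45 in KO HFD 11 and 10.43 to 10.71 in WT HFD. Here KO HFD 11 lay within the WT HFD range, and the log2 difference was -0.40 ± 0.08 (adjusted p = 0.0022). Mrpl43, a mitochondria-specific large-subunit protein, had 9.45, 9.34 and 9.40 in KO HFD, 9.75 in KO HFD 11 and 9.66 to 9.93 in WT HFD. Its log2 difference was -0.40 ± 0.07 (adjusted p = 0.0015), and -0.31 ± 0.08 with all 18 arrays (adjusted p = 0.018).

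Mrpl57, Mrps25 and Mrps11 fell as deposited and after centring on the cluster median, but not under every scaling. Mrpl57 and Mrps25 are mitochondria-specific, and Mrps11 has a bacterial counterpart on the platform of the small subunit. Mrpl57 had a log2 difference of -0.37 as deposited (adjusted p = 0.0015) and -0.17 after quantile normalization (adjusted p = 0.055). For Mrps25 these were -0.34 (adjusted p = 0.0022) and -0.17 (adjusted p = 0.06), and for Mrps11 -0.26 (adjusted p = 0.0035) and -0.08 (adjusted p = 0.27).

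**Figure D3:**
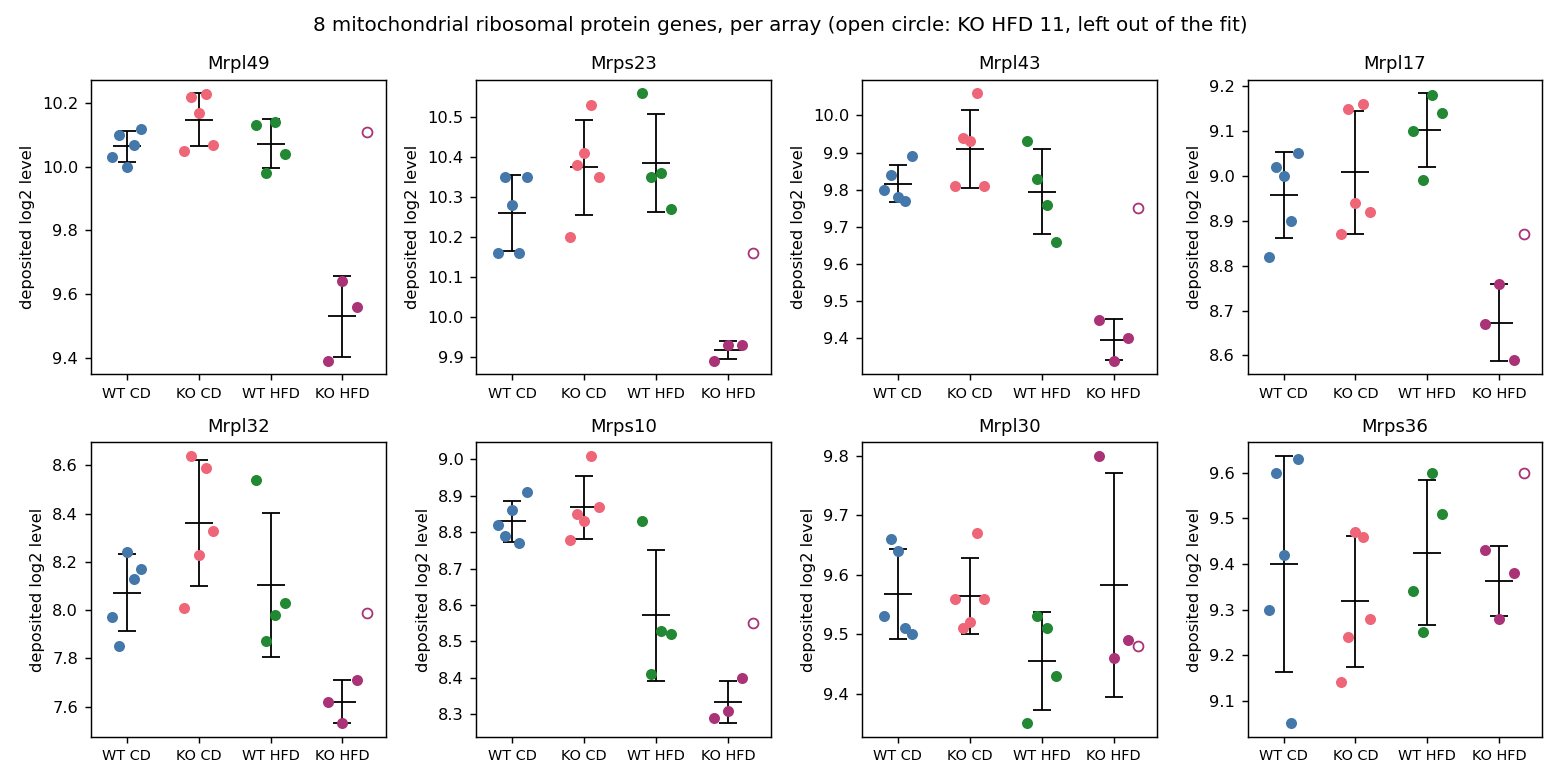
Deposited log2 levels of 8 members (y axes, each with its own range) in the 4 groups, 1 point per array, with mean ± SD of the filled points. KO HFD 11, the open circle, lies at 10.11 for Mrpl49, among the WT HFD points; for Mrpl30 and Mrps36 the 4 groups overlap.

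The effect of HFD in KO islets was compared in KO HFD and KO CD. As deposited, 58 members (85.3%) fell and none rose, with a median of -0.34, against 44.6% of all genes called lower, 1.45% called higher and a median of -0.18. After centring on the cluster median 40 members (58.8%) fell, against 21.2% of all genes. Centring on the gene median left 18 lower and 1 higher, against 7.64% and 22.0% of all genes. Quantile normalization left 16 lower and 1 higher, against 7.92% and 8.38%, and cyclic loess 18 lower and 1 higher, against 7.75% and 7.87%. With all 18 arrays 58 fell, against 41.1% of all genes. Leaving out 1 array at a time gave 47 to 61 as deposited and 22 to 42 after centring, with the lowest values without KO HFD 18 and KO HFD 17. After centring, leaving out KO HFD 18, KO CD 2 or KO CD 12 also lowered the count of 40, to 24, 25 and 25, against 13.1%, 14.4% and 12.9% of all genes, and without KO HFD 17 the 22 stood against 10.9%. Under all 5 scalings, and with all 18 arrays, the same 16 members fell: Mrpl13, Mrpl16, Mrpl32, Mrpl34, Mrpl36, Mrpl40, Mrpl43, Mrpl45, Mrpl47, Mrpl49, Mrpl54, Mrpl57, Mrps10, Mrps14, Mrps23 and Mrps34. The share of all genes that did so was not counted and cannot exceed the 7.64% called lower after centring on the gene median. This comparison and the one with WT HFD use the same KO HFD arrays, so their counts are not independent.

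Mrpl49 fell by 0.62 on the log2 scale between KO CD and KO HFD (SE 0.06, adjusted p = 0.00017), at rank 3 by p of all genes. Mrpl43 fell by 0.51 (SE 0.07, adjusted p = 0.00044), at rank 23. With all 18 arrays Mrpl49 fell by 0.47 (SE 0.10, adjusted p = 0.0023), at rank 1300, and Mrpl43 by 0.42 (SE 0.08, adjusted p = 0.0013), at rank 446. Mrpl32, whose bacterial counterpart sits in the large subunit and whose precursor is cut by a mitochondrial protease before it is built in, had the lowest difference of all members. Its deposited log2 levels were 7.62, 7.53 and 7.71 in KO HFD and 7.99 in KO HFD 11, against 8.01, 8.64, 8.23, 8.59 and 8.33 in KO CD. No KO HFD array reached the KO CD range, but KO CD itself spread widely. The difference was -0.74 ± 0.15 (adjusted p = 0.0014), a 0.60-fold level, and -0.56 after quantile normalization (adjusted p = 0.01).

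Mrps10, with a bacterial counterpart in the small subunit, had a log2 level of 8.29, 8.31 and 8.40 in KO HFD, 8.55 in KO HFD 11 and 8.78 to 9.01 in KO CD. Its WT HFD levels were 8.83, 8.41, 8.53 and 8.52 and its WT CD levels 8.77 to 8.91, so 3 of 4 WT HFD arrays were also below every CD array. Between KO CD and KO HFD it fell by 0.53 (SE 0.08, adjusted p = 0.00044). Mrpl34, counterpart of a small bacterial large-subunit protein, fell by 0.48 (adjusted p = 0.00044), from 10.42 to 10.78 in KO CD to 10.11 to 10.21 in the 3 KO HFD arrays, with 10.41 in KO HFD 11. Mrpl45, a mitochondria-specific protein at the tunnel exit, next to the inner membrane, fell by 0.53 (adjusted p = 0.00091). Mrpl33, another counterpart of a small bacterial protein, fell by 0.39 (adjusted p = 0.00057) but by 0.16 after quantile normalization (adjusted p = 0.055). Mrps23 fell by 0.46, Mrpl57 by 0.44, Mrps25 by 0.41 and Mrps11 by 0.35, the last with an adjusted p of 0.24 after quantile normalization.

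**Figure D4:**
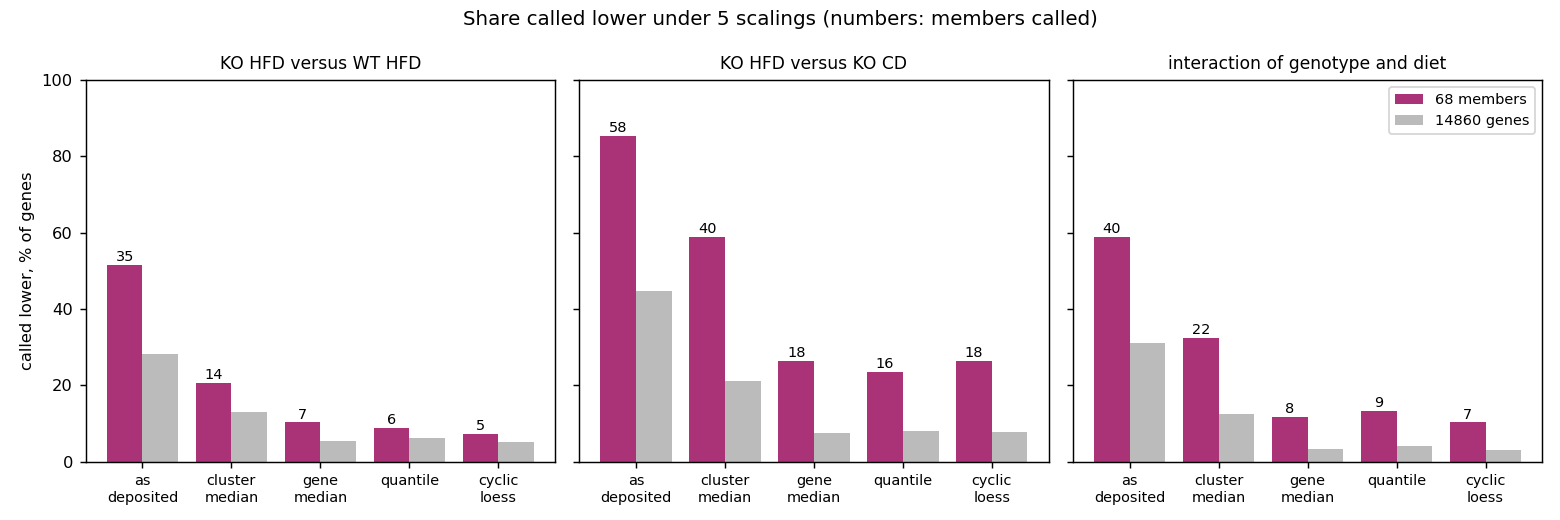
Bars give the percentage called lower at an adjusted p under 0.05 among the 68 members and among all 14860 genes, for 2 comparisons and the interaction, under 5 scalings on the x axes; the number over each member bar is its count. From the deposited values to cyclic loess the member counts go from 35 to 5, from 58 to 18 and from 40 to 7.

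A few members lay near or above 0 against WT HFD; they were picked out after their values were seen. Mrpl30, with a bacterial counterpart in the large subunit, had deposited log2 levels of 9.80, 9.46 and 9.49 in KO HFD and 9.35 to 9.53 in WT HFD, and the groups overlapped. Its log2 difference was 0.13 ± 0.08 as deposited (adjusted p = 0.23) and 0.32 ± 0.09 after quantile normalization (adjusted p = 0.027), so it is the 1 member called higher there, and KO HFD 10 alone lay above the other KO HFD arrays. Against KO CD its difference was 0.02 (adjusted p = 0.84) as deposited and 0.30 (adjusted p = 0.026) after quantile normalization. Mrpl12, part of the stalk that recruits translation factors, differed by 0.01 between KO HFD and WT HFD (adjusted p = 0.97). Against KO CD it fell by 0.19 as deposited (adjusted p = 0.034) but was not called under the other 4 scalings. Mrps9 differed by -0.02 from WT HFD (adjusted p = 0.9) and by -0.19 from KO CD (adjusted p = 0.051), where it fell with all 18 arrays (adjusted p = 0.043). Mrps36 differed by -0.06 from WT HFD (adjusted p = 0.75) and by 0.04 from KO CD (adjusted p = 0.8). Mrps24, with 10.48, 10.05 and 10.01 in KO HFD, differed by 0.02 from WT HFD (adjusted p = 0.91), and Mrpl21 by -0.02 (adjusted p = 0.94). The dimmest members were Mrpl22, Mrpl21 and Mrpl48, and Mrpl22, Mrpl48 and Mrpl32 had the widest pooled SD within groups, 0.42, 0.26 and 0.23 against a range of 0.06 to 0.42 over all members. For Mrpl22 the log2 difference between KO HFD and WT HFD was -0.29 ± 0.29, so a change of this size was not detectable. Of the 3 brightest members, Mrpl10, at the base of the same stalk, fell by 0.31 (adjusted p = 0.0053), beside Mrpl57 and Mrpl4.

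Both subunits contributed members that fell. Between KO HFD and WT HFD, 24 of 45 large-subunit and 11 of 22 small-subunit members fell as deposited, with medians of -0.27 and -0.23, and 11 and 3 after centring on the cluster median. Of all genes 28.1% fell as deposited and 13.0% after centring, and the 3 of 22 small-subunit members lay near the latter. Between KO HFD and KO CD, 39 large-subunit and 19 small-subunit members fell as deposited and 26 and 14 after centring, against 44.6% and 21.2% of all genes. Among the members with bacterial counterparts 19 of 41 fell between KO HFD and WT HFD, and among the mitochondria-specific members 16 of 26, with medians of -0.23 and -0.28. Against KO CD the medians were -0.34 and -0.39. The differences between these classes were not tested.

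Without HFD, genotype was compared in KO CD and WT CD. No member was called in either direction by limma, and 0.155% of all genes were. The member median was 0.11, and 65 of 68 members were above 0 and 3 below. Over all genes the median was 0.04 and 34.8% were below 0. After quantile normalization the member median was 0.04, and 52 members were above 0 and 16 below. Over all genes the median was then 0.0 and 48.5% were below 0. Mrpl34 had a log2 difference of 0.20 ± 0.06 (adjusted p = 0.17) and passed only without KO CD 1, with 0.26 (adjusted p = 0.035). Mrpl57 levels did not overlap, with 10.56 to 10.77 in KO CD and 10.30 to 10.51 in WT CD, at a difference of 0.19 (adjusted p = 0.18). Mrps27, picked out after its values were seen, did not overlap either, with 8.26 to 8.68 in KO CD and 8.05 to 8.24 in WT CD. Its difference was 0.29 (adjusted p = 0.18), and 0.22 after quantile normalization (adjusted p = 0.13). The share of all genes without overlap was not counted. Mrpl49 differed by 0.08 (adjusted p = 0.47). The effect of HFD in WT islets was likewise not called in any member, against 0.188% of all genes called, and the median was 0.00. Mrps10 came closest, with -0.26 ± 0.07 (adjusted p = 0.21); without WT HFD 7 it was -0.34 (adjusted p = 0.022) and passed, as it did with array weights and after cyclic loess. The unadjusted p was under 0.05 in 18 members for KO CD against WT CD, where it was in 15.6% of all genes, and in 2 for WT HFD against WT CD, where it was in 8.48%. After rescaling these became 12 to 17 members, with 14.0% to 14.7% of all genes, and 8 members under each of the 4 rescalings, with 11.0% to 12.3% of all genes.

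The interaction tests whether the effect of HFD differed between KO and WT. It was called negative in 40 members (58.8%) and positive in none, with a median of -0.34, against 31.2% of all genes negative, 1.45% positive and a median of -0.18. After centring on the cluster median 22 members were negative, against 12.6% of all genes. Centring on the gene median gave 8 negative and 1 positive, against 3.34% and 4.66%, quantile normalization 9 and 1, against 4.1% and 3.26%, and cyclic loess 7 and 1, against 3.16% and 3.76%. With all 18 arrays 34 were negative, against 22.9% of all genes. With the mean of digestive enzymes as a covariate no gene of all was called, 0.0% of those tested, and the member median was -0.46. Under all 5 scalings, and with all 18 arrays, 7 were negative: Mrpl11, Mrpl16, Mrpl43, Mrpl49, Mrpl54, Mrpl57 and Mrps23. The share of all genes negative in each was not counted and cannot exceed the 3.16% after cyclic loess. Mrpl49 had the value -0.63 ± 0.09 (adjusted p = 0.0025), at rank 9 of all genes by p. With all 18 arrays its value was -0.48 ± 0.14 (adjusted p = 0.028), at rank 1887. Mrps10, which was lower in most WT HFD arrays too, had -0.28 ± 0.10 (adjusted p = 0.052).

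The promoters of these genes are known for sites of GABP, NRF1 and YY1, transcription factors of nuclear genes for mitochondrial proteins. RefSeq promoters (GRCm38.p6, 250 bases before to 50 after the start, the first listed per gene) matched 59 of the 68 members. The ETS word CCGGAAG, bound by GABP, was found on either strand in 19 of them (32.2%), against 9.12% of 27025 promoters. The NRF1 word GCGCATG was in 8 (13.6%, against 4.04%) and the YY1 word AAGATGG in 12 (20.3%, against 6.48%), and at least 1 of the 3 words was in 50.8% of member promoters and 17.9% of all. Of the members called lower between KO HFD and WT HFD 19 of 31 held a word, and of those not called 11 of 28. The same shares were not counted over all genes called and not called, so this cannot be read as particular to the members. All words are letter matches, not sites, and nothing here measured binding. The stretches below run from 120 bases before to 30 bases after the start, 5′ to 3′ on the gene's strand, with the words in capitals in either orientation. Mrpl49 (chr19:6057726-6057875, minus strand), Mrpl43 (chr19:45006413-45006562, minus) and Mrps23 (chr11:88204268-88204417, plus) are shown because they fell under every scaling in both comparisons, Mrpl17 (chr7:105811058-105811207, minus) as one of the 5 that fell against WT HFD under every scaling, Mrpl32 (chr13:14613008-14613157, minus) as the lowest against KO CD, Mrps11 (chr7:78783011-78783160, plus) for its shared promoter and Mrpl30 (chr1:37890357-37890506, plus) as a member that was not called lower in either comparison.
Mrpl49: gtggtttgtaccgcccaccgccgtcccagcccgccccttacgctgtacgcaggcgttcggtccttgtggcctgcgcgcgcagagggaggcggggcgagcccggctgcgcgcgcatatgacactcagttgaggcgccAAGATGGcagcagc
Mrpl43: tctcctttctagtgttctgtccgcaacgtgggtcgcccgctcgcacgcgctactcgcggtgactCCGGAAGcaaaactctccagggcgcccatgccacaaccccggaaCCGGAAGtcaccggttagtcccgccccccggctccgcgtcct
Mrps23: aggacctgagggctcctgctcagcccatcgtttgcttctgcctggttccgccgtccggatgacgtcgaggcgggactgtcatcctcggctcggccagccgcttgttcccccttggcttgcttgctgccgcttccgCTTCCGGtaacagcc
Mrpl17: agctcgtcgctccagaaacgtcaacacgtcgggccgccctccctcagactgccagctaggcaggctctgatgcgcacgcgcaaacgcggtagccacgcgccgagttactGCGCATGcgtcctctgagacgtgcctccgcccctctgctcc
Mrpl32: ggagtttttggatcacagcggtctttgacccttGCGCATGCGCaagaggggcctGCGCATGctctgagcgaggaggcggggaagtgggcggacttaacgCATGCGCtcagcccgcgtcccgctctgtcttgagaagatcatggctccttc
Mrps11: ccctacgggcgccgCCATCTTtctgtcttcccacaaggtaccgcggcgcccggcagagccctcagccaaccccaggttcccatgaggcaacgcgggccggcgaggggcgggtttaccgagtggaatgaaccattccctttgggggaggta
Mrpl30: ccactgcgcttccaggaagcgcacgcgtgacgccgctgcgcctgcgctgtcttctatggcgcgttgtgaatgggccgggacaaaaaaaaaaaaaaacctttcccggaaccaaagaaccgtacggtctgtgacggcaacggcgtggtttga
Mrpl43 held the ETS word at more than 1 place, Mrpl32 several NRF1 words, of which its first capital stretch holds an overlapping pair, one on each strand, and Mrpl30 none of the 3. The Mrps23 stretch lies inside the gene, which RefSeq places at chr11:88194106-88211507, so its start is not the 5′ end of the gene.

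Of the 59 members with a promoter entry, 25 had the start of a gene on the other strand within 1000 bases, so that both could share a promoter; 21 of these partners were measured, and 6 (28.6%) fell between KO HFD and WT HFD, near the 28.1% of all genes. Of these 6, Mrps11 is itself a member. Mrps11 and Mrpl46 are both members and start 42 bases apart. Mrps11 fell by 0.26 (adjusted p = 0.0035) whereas Mrpl46 differed by -0.09 (adjusted p = 0.62). Against KO CD the values were -0.35 (adjusted p = 0.00047) and -0.27 (adjusted p = 0.067), and the difference between the genes was not tested. Mrps12 starts 147 bases from Sars2, the mitochondrial seryl-tRNA synthetase, which fell by 0.38 (adjusted p = 0.00058), while Mrps12 differed by -0.23 (adjusted p = 0.15). Mrpl43 starts 116 bases from Twnk, the helicase of mitochondrial DNA, whose difference was -0.20 against WT HFD (adjusted p = 0.16) and -0.26 against KO CD (adjusted p = 0.041). Mrpl47 starts 308 bases from Ndufb5, a subunit of complex I, and the pair fell by 0.50 and 0.38 against KO CD, both called, and differed by -0.36 (adjusted p = 0.016) and -0.19 (adjusted p = 0.098) from WT HFD. The partner of Mrpl49 at 192 bases, Fau, was not analysed here.

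The other genes of mitochondrial translation were set beside the members list by list. As deposited, 28.1% of all genes fell against WT HFD and 44.6% against KO CD. After centring on the cluster median 13.0% and 21.2% fell, and after quantile normalization 6.22% and 7.92%. Of 3 measured mitoribosomal proteins with other symbols, Gadd45gip1 fell between KO HFD and WT HFD by 0.32 (adjusted p = 0.018), and Gadd45gip1, Chchd1 and Ptcd3 fell against KO CD. Of 21 measured assembly factors, 12 fell and none rose between KO HFD and WT HFD, with a median of -0.26, and 5 after centring on the cluster median. Tfb1m, which methylates the small ribosomal RNA, fell by 0.46 (adjusted p = 0.0025), Ngrn by 0.36 (adjusted p = 0.0028), and the partners Nsun4 and Mterf4, which act on the ribosomal RNA as one complex, by 0.33 (adjusted p = 0.0096) and 0.25 (adjusted p = 0.0045). Against KO CD all 21 fell as deposited, 11 after centring and 5 after quantile normalization. Of 15 translation factors 7 fell between KO HFD and WT HFD, led by the initiation factor Mtif3 with -0.43 (adjusted p = 0.0051), and 13 against KO CD, where Slirp, which stabilizes mitochondrial mRNAs, had -0.58 (adjusted p = 0.001).

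The mitochondrial aminoacyl-tRNA synthetases charge the tRNAs used by this ribosome. Between KO HFD and WT HFD, 5 of the 18 measured fell and Fars2 rose, by 0.24 (adjusted p = 0.0066). Their median was -0.12 and that of all genes -0.13, and 28.1% of all genes were called lower. Of 11 genes of mitochondrial DNA replication and transcription 3 fell: Pnpt1 and Supv3l1, which degrade mitochondrial RNA together, by 0.36 and 0.27, and the elongation factor Tefm by 0.39. Of 54 respiratory chain and ATP synthase subunits 20 fell and none rose, with a median of -0.19. Of 22 cytosolic ribosomal proteins 4 fell and 1 rose, with a median of -0.10 as deposited and 0.02 after quantile normalization. Against KO CD, 42 of the 54 and 5 of the 22 fell, with medians of -0.29 and -0.10, against 44.6% of all genes and a median of -0.18. The mitochondrial ribosomal proteins thus had lower medians than these 22 cytosolic ones as deposited in both comparisons, a difference that was not tested. The 22 are only those cytosolic genes that were named alone on a cluster. Their array means, 7.88 to 8.36, lay below the member means of 8.93 to 9.45. Rps20 among them had 1.33 ± 1.32 against KO CD, so the list does not stand for the whole cytosolic ribosome.

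**Figure D5:**
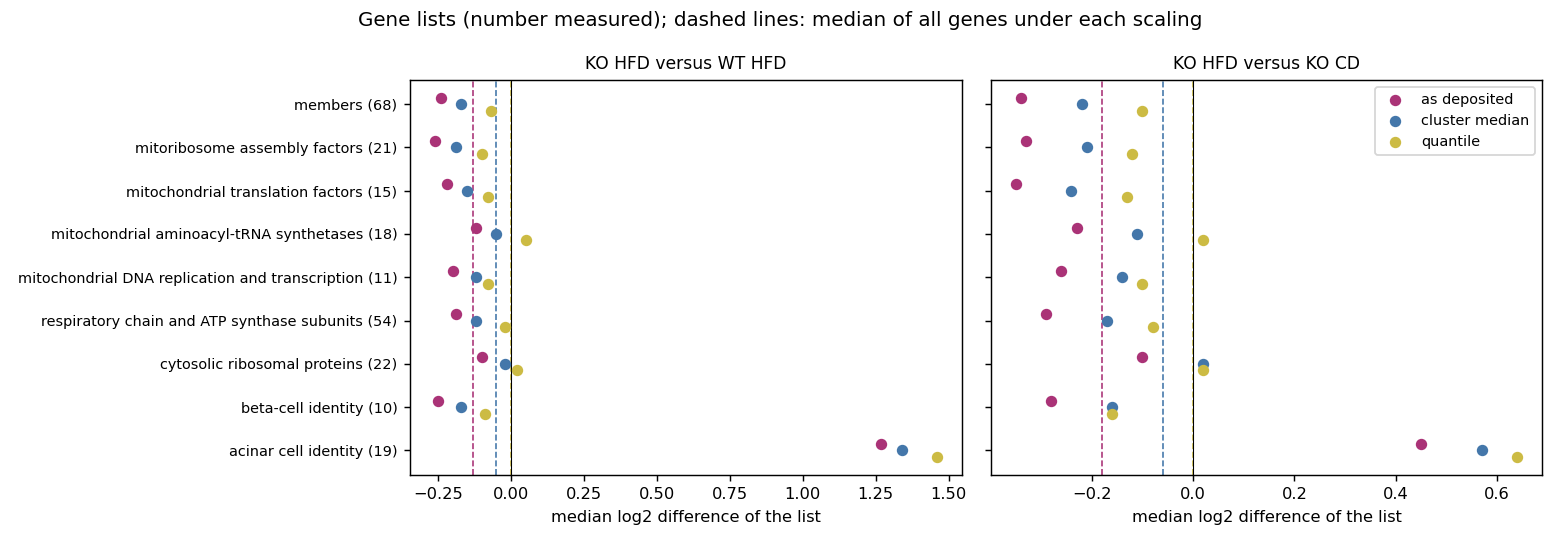
The x axes give the median log2 difference of each gene list (rows, with the number measured) as deposited, after centring on the cluster median and after quantile normalization; dashed lines mark the median of all genes under each scaling. The members, at -0.24, -0.17 and -0.07 between KO HFD and WT HFD, lie left of the line of their scaling, and acinar cell identity genes lie far to the right.

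Among 10 regulators of nuclear genes for mitochondrial proteins, Ppargc1a rose and Pprc1 fell between KO HFD and WT HFD. Both encode coactivators of the PGC-1 family. Ppargc1a had log2 levels of 9.68, 9.99 and 9.94 in KO HFD, 10.38 in KO HFD 11 and 9.20 to 9.70 in WT HFD, a difference of 0.39 ± 0.12 (adjusted p = 0.024). KO HFD 11 was the highest array of all 18 for this gene, and KO HFD 10 overlapped the WT HFD range. In CD it was 9.56 to 10.01 in KO and 9.27 to 9.48 in WT, so KO arrays stood above WT arrays without HFD as well. Pprc1 had 8.39, 8.34 and 8.18 in KO HFD, 8.37 in KO HFD 11 and 8.61 to 8.87 in WT HFD, with no overlap and a difference of -0.40 ± 0.08 (adjusted p = 0.0028). Against KO CD, as deposited, Gabpa and Gabpb1, which form GABP, fell by 0.31 (adjusted p = 0.0047) and 0.42 (adjusted p = 0.0016). Yy1 fell by 0.24 (adjusted p = 0.0027) and Nrf1 by 0.14 (adjusted p = 0.032). The median of all genes in this comparison was -0.18, and 44.6% of them were called lower. Nrf1 thus fell less than the median of all genes, and Yy1 lay near it. In WT HFD 8, 9 and 16, Gabpa, Gabpb1 and Yy1 were also below every CD array. Gabpa was 9.40, 9.31 and 9.31 there, Gabpb1 8.37, 8.42 and 8.47, and Yy1 10.72, 10.70 and 10.71. The lowest CD values were 9.45, 8.48 and 10.80. WT HFD 7 lay within the CD range for each of them.

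Over the 17 arrays, members rose and fell together and with the array as a whole. Pearson's r with the member mean had a median of 0.86 over the members, from -0.02 for Mrpl30 to 0.97 for Mrpl47, and of 0.55 over all genes. With the group means removed the medians were 0.71 and 0.41. The members are part of the mean they were set against, and all genes share the array's scale. The 5 other genes most like the member mean were Actl6a, Papolg, Trip4, Pdcl3 and Dync2li1, with r from 0.98 to 0.984.

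Acinar RNA stood beside these results as follows. Of 13 measured digestive enzymes 12 rose between KO HFD and WT HFD, with a median of 0.43, and 7 rose against KO CD, and 13 of 19 acinar identity genes rose against WT HFD, with a median of 1.27. WT CD arrays had digestive enzyme means as high as KO HFD, 13.74 to 14.05, with member means of 9.15 to 9.29. With the mean of the digestive enzymes as a covariate no member was called between KO HFD and WT HFD, where 9 genes of all were, although the member median was -0.32 and Mrpl49 was at -0.43. Enzyme means did not overlap between these groups, and this fit cannot separate them well. The same covariate left 56 members lower against KO CD, where 35.3% of all genes were lower. Of the beta-cell identity genes 5 of 10 fell between KO HFD and WT HFD, with a median of -0.25, among them Kcnj11, a subunit of the ATP-sensitive potassium channel, by 0.38 (adjusted p = 0.0082). Endothelial markers fell in 9 of 12, leukocyte markers in 2 of 17, stellate cell and fibroblast markers in 2 of 13 and duct markers in 1 of 8, where Muc1 rose. Of all genes 28.1% fell and 1.32% rose in this comparison. Without KO CD 13 and WT CD 14, the arrays with the highest leukocyte markers, 31 members fell between KO HFD and WT HFD, against 27.3% of all genes. The part of these cell types in the members' values was otherwise not tested.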

How the data were processed

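Gene-level values of 18 Affymetrix mouse exon arrays were used as the authors deposited them: log2 values per transcript cluster from RMA in Affymetrix Expression Console 1.3, per the labels. RMA normalizes probes between arrays, so deposited values are relative and no read depth applies; the number of arrays limits the precision. The same hybridizations summarized per exon were not used here. Of 23332 clusters, 14996 carried 1 gene symbol in the platform annotation, and the brightest cluster per gene gave 14860 genes. Groups came from the labels.

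Differences were tested with limma 3.58.1 (lmFit and eBayes, R 4.3.3) in 1 model over the 4 groups and 17 arrays, on log2 values, with Benjamini-Hochberg adjustment over all 14860 genes; a gene was called at an adjusted p under 0.05. KO HFD 11 was left out because the study's methods drop 1 array of that group, which they do not name. The script was tested on simulated data. Arrays were rescaled by centring on the median of all clusters or of the genes tested, by quantile normalization again and by cyclic loess. Other alternatives were all 18 arrays, each array left out, a fit of the compared groups only, array weights, trend and robust eBayes, the mean of a gene's clusters, no dim genes, islets 1 to 11 against 12 to 18 as a block, acinar enzymes as a covariate, and an adjusted p under 0.01. Members, lists and tests were chosen with earlier results of these data known. Mrpl49, Mrpl43 and Mrps10 were fixed because they are in the study's list of its top genes, which came from these same data. Named members were Mrpl49, Mrpl43 and Mrps10, up to 8 called in each direction with the smallest adjusted p in each comparison as deposited and centred on the cluster median, the 3 brightest, the 3 dimmest and the 3 with the widest SD; others are said to have been picked after their values were seen or come from the counts over all scalings, pairs and lists. Promoters were taken from RefSeq (GRCm38.p6). The build behind the array annotation is not given in the sources used here.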

Additional observations from a re-analysis of the deposited data

Results flagged for a closer look

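The effect of HFD differed between KO and WT, by the interaction in the fit, in 40 members as deposited, beside 32.6% of all genes. After centring on the gene median, quantile normalization or cyclic loess 8 to 10 members were called, and none with the acinar covariate. Among the 40 were Mrpl43 with -0.49 ± 0.09 (adjusted p = 0.0037) and Mrpl49 with -0.63 ± 0.09 (adjusted p = 0.0025) on the log2 scale. Among 54 sets of values tested for an array standing apart from its group, 3 had one, and chance alone gives about 1 in 20. Mrpl33 was 8.52 in WT HFD 7 and 8.29 to 8.33 in the other WT HFD arrays. Mrpl45 was 8.20 in KO CD 1 and 8.50 to 8.62 in the other KO CD arrays. Mrpl57 was 10.77 in KO CD 12 and 10.56 to 10.61 in the others.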

How the results depend on the processing

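No paired analysis was possible because each islet number belongs to 1 mouse of 1 group. Between KO HFD and WT HFD the 35 calls became 14 (median -0.17) with arrays centred on the cluster median, 8 (-0.07) on the gene median, 7 (-0.07) after quantile normalization, 6 (-0.06) after cyclic loess, 11 (-0.16) with all 18 arrays centred on the cluster median, 22 with only the compared groups, 14 at an adjusted p under 0.01 and 0 with the acinar covariate; leaving out single arrays gave 17 to 39. Against KO CD, the 58 calls became 19 (median -0.09) on the gene median, 17 (-0.10) after quantile normalization and 19 (-0.10) after cyclic loess; the median was -0.22 on the cluster median and -0.24 with all 18 arrays so centred. The 40 interaction calls became 22 (median -0.24) on the cluster median, 9 (-0.10) on the gene median, 10 (-0.10) after quantile normalization, 8 (-0.09) after cyclic loess, 17 (-0.24) with all 18 arrays centred, 18 at an adjusted p under 0.01, and 0 (-0.46) with the acinar covariate. Between WT HFD and WT CD, Mrps10 was the 1 call with array weights and after cyclic loess, the acinar covariate gave a median of 0.09, single arrays left out gave 0 to 1 calls, and Mrpl49, at 0.01 and not called, turned to -0.11 with that covariate (adjusted p = 1), -0.01 with array weights and -0.00 after cyclic loess, and ranged from -0.02 to 0.04 with single arrays left out. Between KO CD and WT CD, single arrays left out gave 0 to 1 calls. In an alternative added after seeing the data, counts centred on the cluster median with each array left out ranged from 7 to 18 against WT HFD, 22 to 42 against KO CD and 14 to 28 for the interaction. The share of all genes called lower moved too. Without KO HFD 17 it went from 13.0% to 6.9% against WT HFD and from 21.2% to 10.9% against KO CD. The cause of these shifts was not tested. No share of all genes stands beside the counts with all 18 arrays centred, only the compared groups or an adjusted p under 0.01. Those counts cannot be read as particular to the members. The islet blocks, trend and robust fits, the mean of a gene's clusters and dropping dim genes left all 5 counts of calls within 1.5 times their value. The number of arrays, 3 in KO HFD, limits all of these.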

Other observations

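KO HFD 11, the array left out of the fit, can be read only as values of a single mouse. Its log2 level was above the 3 other KO HFD arrays in 43 of the 68 members, within the WT HFD range in 42 and below that range in 24. Of the 35 members called lower between KO HFD and WT HFD, it was above the other KO HFD arrays in 31, within the WT HFD range in 18 and below it in 17. The 35 were called from low values of those 3 arrays, which by itself favours a left-out array lying above them. The median of the genes tested was also higher in KO HFD 11, 8.52 against 8.34 to 8.40. The matching shares over all genes were not counted. The digestive enzyme mean of KO HFD 11 was 13.68, between the WT HFD and the other KO HFD arrays, and its Gnaz level, 10.06, was that of a KO array. Ppargc1a, the coactivator gene, was highest on this array, at 10.38, and Sst, the somatostatin gene, was 14.06 there against 13.26, 13.79 and 13.86 in KO HFD 10, 17 and 18.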
